A study of Homo sapiens with 8 samples.

Results

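The microRNAs described here are those of the miR-200b, miR-200a and miR-429 cluster of human chromosome 1, measured by 5 of the 754 TaqMan assays of the series. The 5 assays were taken by name: the guide strands miR-200b, miR-200a and miR-429 on card A of the array, and the passenger strands miR-200b# and miR-200a# on card B, where # is the card's mark for a passenger strand. They were followed in A549, LC2/ad, PC3 and PC9, 4 lung adenocarcinoma cell lines by their labels, each as 1 control sample without treatment and 1 sample given TGF-β1 at 5 ng/ml for 72 h. All 8 samples are total RNA from cells grown with fetal bovine serum, and no transgene or allele is named for any of them. The labels state that the submitters did not authenticate the lines, and the name PC3 is also that of a prostate line. Each condition has a single sample per line, which leaves the lines as the only replicates, and in RNA from a whole culture fewer expressing cells and less RNA per cell cannot be told apart.

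The miR-200 family has 2 clusters, the one described here and miR-200c with miR-141 on chromosome 12. Its members are abundant in epithelial cells, where they repress the mRNAs of ZEB1 and ZEB2, transcription factors that silence E-cadherin. ZEB proteins in turn repress both clusters, and TGF-β1, a cytokine that can drive the epithelial-mesenchymal transition, raises ZEB proteins in many epithelial cells. A microRNA finds its targets mainly through the seed, bases 2 to 8 from its 5′ end, so sequences with 1 seed share many targets.

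The mature sequences are shown because the seeds split the cluster, and because the chromosome 12 pair against which the cluster is compared carries the same seeds. They are RefSeq's (GRCh38.p14), 5′ to 3′, with the seed in capitals. All 5 members had an entry.
miR-200b: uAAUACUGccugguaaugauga
miR-429: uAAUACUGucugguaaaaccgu
miR-200c: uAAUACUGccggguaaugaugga
miR-200a: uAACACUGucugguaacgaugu
miR-141: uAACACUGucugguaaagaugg
miR-200b#: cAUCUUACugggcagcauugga
miR-200a#: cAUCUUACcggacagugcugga

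miR-200b, miR-429 and miR-200c share the seed AAUACUG, and miR-200a and miR-141 share AACACUG. Counted from the 5′ end, the seeds of miR-200b and miR-200a differ by U4C alone. Over 22 aligned positions miR-200b was identical to miR-200c at 20 and to its own neighbour miR-429 at 16, while miR-200a was identical to miR-141 at 20. The passenger strands share AUCUUAC and were identical to each other at 17 positions. On chromosome 1 of GRCh38.p14 the hairpin genes are MIR200B at chr1:1167104-1167198, MIR200A at chr1:1167863-1167952 and MIR429 at chr1:1169005-1169087, a span of 1984 bases. All 3 lie inside MIR200BHG (chr1:1162877-1170338), a gene for a long non-coding RNA, and no other gene of the table overlaps the span. MIR200C (chr12:6963699-6963766) and MIR141 (chr12:6964097-6964191) lie inside MIR200CHG.

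The value of an assay is its threshold cycle (Ct), where 1 cycle less stands for a doubling of template and 40 stands for no amplification. A Ct of 35 or below counted as detected. Between 225 and 281 assays were detected per sample, 372 in at least 1 sample and 168 in all 8. Each assay was read in 1 well, and the only repeated wells are those of U6, 4 per card, whose pooled SD was 0.39 cycles (card A) and 0.22 cycles (card B). The spread of the members' own wells was not measured. In the control samples PC9 had all 6 epithelial markers (miR-200c, miR-141, miR-205, miR-203, miR-375 and miR-31), A549 and PC3 had 5 each, and LC2/ad had 4. miR-205 was at 40 outside PC9. PC3 had 3 of 5 fibroblast and smooth muscle markers, among them miR-214 at a Ct of 25.7 in the control sample and miR-199a-3p at 25.1.

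The cluster was abundant in PC9, low in A549 and LC2/ad and at or under the detection limit in PC3. miR-200b, the member detected in the most samples (7 of 8), had a Ct of 25.8 in the control and 25.5 in the TGF-β1-treated sample of PC9, 31.8 and 30.6 in those of LC2/ad, 30.5 and 29.6 for A549, and 34.5 and 35.9 for PC3. The Ct of miR-200a was 28.6 and 27.8 in PC9, 33.8 and 33.3 in LC2/ad, and 32.2 and 30.1 for A549, and it did not amplify in either PC3 sample. miR-429 had a Ct of 27.9 and 27.1 in PC9, 36.6 and 32.5 in LC2/ad, 33.5 and 30.9 for A549, and 36.5 and 33.9 for PC3. In each of the 3 guide assays both PC9 samples lay below all other samples in Ct, and both PC3 samples above both A549 samples.

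The passenger strands were detected less often. miR-200a# had a Ct of 31.8 and 29.5 in PC9. It was at 40 in control and 33.7 in treated A549, at 34.2 in control and 40 in treated LC2/ad, and at 40 in both PC3 samples. miR-200b# was at 40 in all 8 samples, PC9 included, where the guide strand miR-200b had its lowest Ct.

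**Figure D1:**
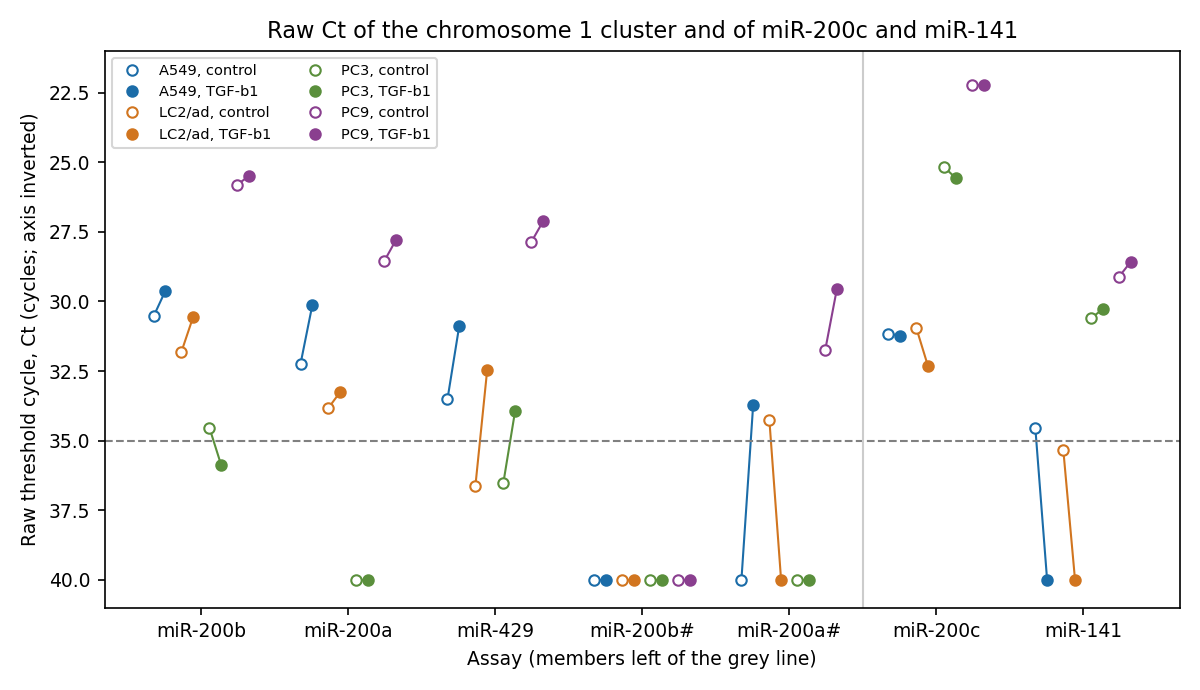
Raw Ct (cycles, inverted axis, so that higher points hold more template) of the 5 members and of miR-200c and miR-141, with 1 point per sample, open for control and filled for TGF-β1, in the colour of the cell line. The dashed line marks the detection limit of 35, and points at 40 did not amplify. PC9 lies highest in every assay but miR-200b#, while PC3 is second for miR-200c and miR-141 and lowest for miR-200b and miR-200a, with its miR-429 points overlapping those of LC2/ad.

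The first comparison asked how the cluster's level differed between the lines, with both samples of a line as its level. Values are log2 levels, the mean Ct of the card's always-detected microRNAs minus the assay's Ct. They were compared with limma in a model of line and treatment, with 1 lower limit per card for all samples. That limit is set by the control sample of PC9, and on card A it equals a Ct of 33.3 to 35 in the 8 samples. All 3 guides and miR-200a# differed between lines (adjusted p for the F test from 0.000294 to 0.00367), in a series where 60.1% of the 318 assays did.

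The order of the lines was PC9, A549, LC2/ad and PC3 for each guide. miR-200b had a mean log2 level of 3.38 in PC9 and -2.34 in A549, then -3.50 for LC2/ad and the limit of -5.85 for PC3. A549 minus PC9 was -5.72 for miR-200b (SE 0.45, adjusted p = 0.000693, limma), -4.31 for miR-200a (SE 0.47, adjusted p = 0.00171, limma) and -5.98 for miR-429 (SE 0.59, adjusted p = 0.00122, limma). In that contrast 21.1% of assays were lower in A549. All 3 guides were also lower than in PC9 in LC2/ad (-6.88, -6.47 and -6.75 for miR-200b, miR-200a and miR-429, where 18.9% of assays were lower) and in PC3 (-9.23, -6.71 and -7.38, where 21.1% were). miR-200a# was lower in A549 than in PC9 by a log2 difference of -4.02 (SE 0.52, adjusted p = 0.00292, limma). That call was lost with a Ct limit of 38 (adjusted p = 0.0545, limma) or 32 (0.137), with 40 kept as a value (0.150) and without the treated A549 sample (0.0545).

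The other neighbours in that order were less well separated. A549 and LC2/ad did not pass for any member (miR-200a 2.16, SE 0.47, adjusted p = 0.126, limma, against 0.943% of assays called higher in A549). LC2/ad lay above PC3 by 2.35 for miR-200b (SE 0.45, adjusted p = 0.0113, limma, against 19.8% called higher in LC2/ad). For miR-200a that difference was 0.24 (adjusted p = 0.750, limma), but 1.71 (adjusted p = 0.0316, limma) when each sample kept its own limit. A549 lay above PC3 by 3.51 for miR-200b (adjusted p = 0.00278, limma) and 2.40 for miR-200a (adjusted p = 0.0119, limma), against 22.3% called higher in A549. miR-429 had 1.40 there (adjusted p = 0.112, limma), and 2.59 with own limits (adjusted p = 0.0215, limma). PC3 was at the limit for the 3 guides, so its differences understate the distance. Both PC3 values of a guide were then equal, so the limma SEs and p values hold no spread from PC3 itself. Without 1 sample some calls against PC3 were lost. Those of miR-200b against LC2/ad rose to adjusted p values of 0.0527 to 0.141 (limma) in 7 of the 8 fits that leave out a sample, all but that without the LC2/ad control sample. Those of miR-200a against A549 rose to 0.0636 to 0.137 (limma) in 6 of the 8. That of miR-200b against A549 was lost only without the treated PC3 sample (adjusted p = 0.0626, limma). With a Ct limit of 32 all of these calls against PC3 were lost, and that of miR-200b against LC2/ad was also lost with the median as normalizer (1.76, adjusted p = 0.0538, limma).

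The chromosome 12 pair ordered the lines differently. miR-200c was highest in PC9 (6.79) but next highest in PC3 (2.05), with -3.45 in A549 and -3.96 in LC2/ad. All 5 guide assays of the family lie on card A, so the Ct of a chromosome 1 member minus that of miR-200c in the same sample needs no normalizer. For miR-200b that difference was 3.57 and 3.26 cycles in the control and treated samples of PC9, 0.85 and -1.78 in LC2/ad, -0.62 and -1.60 for A549, and 9.35 and at least 9.42 for PC3. For miR-200a it was 6.31 and 5.56 in PC9, 2.87 and 0.92 in LC2/ad, 1.09 and -1.09 for A549, and at least 9.82 and at least 9.42 for PC3. For miR-429 it was 5.63 and 4.90 in PC9, at least 4.05 and then 0.14 in LC2/ad, 2.35 and -0.35 for A549, and at least 9.82 and then 8.36 in PC3. In all 3 pairs the PC3 values lay apart from, and above, those of the 3 other lines. Since 2 assays can amplify with different efficiency, the size within a sample has no meaning of its own, only its change between samples.

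**Figure D2:**
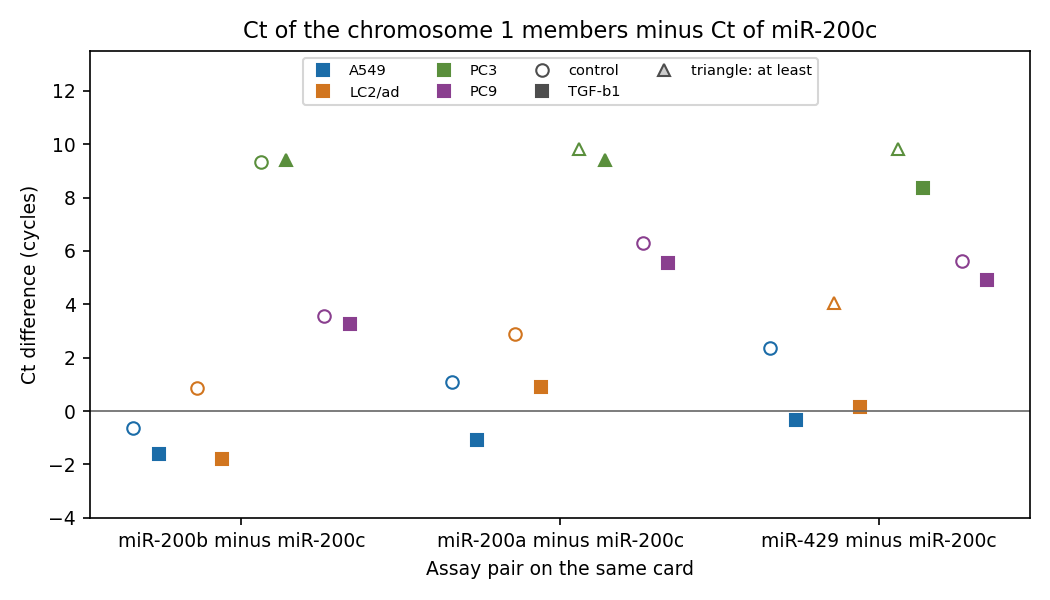
Ct of miR-200b, miR-200a and miR-429 minus the Ct of miR-200c in the same sample (cycles), with open symbols for control, filled for TGF-β1 and triangles for lower bounds where the member was not detected. The PC3 values lie between 8.36 and 9.82, those of PC9 between 3.26 and 6.31, and the lowest belong to A549 and LC2/ad.

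This difference between the clusters was tested with limma on all other card A assays taken relative to miR-200c, a comparison chosen after the values had been seen. Relative to miR-200c, PC3 held less than PC9 of miR-200b (log2 difference -5.97, SE 0.63, adjusted p = 1.12e-05), of miR-200a (-3.69, SE 0.54, adjusted p = 9.76e-05) and of miR-429 (-3.83, SE 0.70, adjusted p = 0.000416). Only 4.46% of the 224 assays were called lower in PC3 in that contrast and 92.4% were called higher, since miR-200c itself is lower in PC3. The other contrasts do not set the members apart: relative to miR-200c 96.9% of assays were called higher in A549 than in PC3, 97.3% higher in LC2/ad than in PC3, and 100% higher in A549 and in LC2/ad than in PC9, the 3 members among them. The error of the miR-200c well is shared by all assays of this fit. An exact permutation of the line labels, 24 orders, asked whether the Ct difference from miR-200c was more alike within lines than across them. It did not compare PC3 with PC9. The permutation gave p = 0.0417 for miR-200a and miR-429, the smallest it can give, and 0.0833 for miR-200b. Adjusted p values of this permutation test were 0.0833, 0.0833 and 0.10 over 6 comparisons, so none passed. With a Ct limit of 32 the miR-200a difference between PC3 and PC9 was -0.69 (adjusted p = 0.101, limma).

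The second comparison asked whether the cluster changed after TGF-β1. The change within a line is the log2 level of the treated minus that of the control sample, and a bound, written as at least or at most, where only 1 of them detected the assay. Treated and control follow the titles and the treatment labels. The source names of all 8 samples state the opposite, and if they were right every sign of change given here would turn. miR-200b had 0.09 in PC9, 0.67 in A549 and 1.65 in LC2/ad. For PC3, where only the control sample detected it, the value was at most -0.47. miR-200a had 0.53 in PC9, 1.86 in A549 and 0.97 in LC2/ad. miR-429 had 0.51 in PC9, 2.39 in A549, and lower bounds of 2.93 in LC2/ad and 1.06 in PC3. The guides thus had positive values in A549, LC2/ad and PC9, except that miR-200b in PC9 turned to -0.12 with the median as normalizer, and in PC3 miR-200b and miR-429 pointed to opposite sides, both from Ct values within 2 cycles of the limit. By the U6 spread of card A a difference of 2 wells would have an SD of 0.54 cycles. That is more than the PC9 values of 0.09, 0.53 and 0.51.

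Over the lines, miR-429 had a mean log2 change of 1.72 (SE 0.56, n = 4, higher in 4 of 4 lines, adjusted p = 0.290, limma), the second highest of 250 tested assays. miR-200a had 1.12 (SE 0.39, n = 3, higher in 3 of 3 lines, adjusted p = 0.370, limma), the seventh highest. miR-200b had 0.49 (SE 0.45, n = 4, higher in 3 of 4 lines, adjusted p = 0.631, limma), but 0.097 without LC2/ad and 0.80 without PC3, and miR-200a# had 0.74 (SE 0.70, n = 3, adjusted p = 0.617, limma). No member passed an adjusted p of 0.05, and neither did any other assay (0% of 250), with 30 assays at an unadjusted p under 0.05. miR-429 and miR-200a were among the 6% of assays under an unadjusted 0.05 on the higher side, as 6% were on the lower. Both were also among the 8.4% that were higher in every line with a value. With U6 as the normalizer miR-429 passed, with a mean of 1.98 (adjusted p = 0.00130, limma), and over the settings that tested it its adjusted p ranged from 0.00130 to 1.00. Its values in LC2/ad and PC3 are lower bounds and entered these tests at their bound. A549 and LC2/ad, which had its largest values, were alike in their levels over assays. Their highest r with another line was 0.79 and 0.75, against -0.13 for PC3 and -0.14 for PC9. Counting both as separate replicates may overstate the replication. With a Ct limit of 32, or with only differences measured in both samples, too few lines had a value and miR-429 was not tested.

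**Figure D3:**
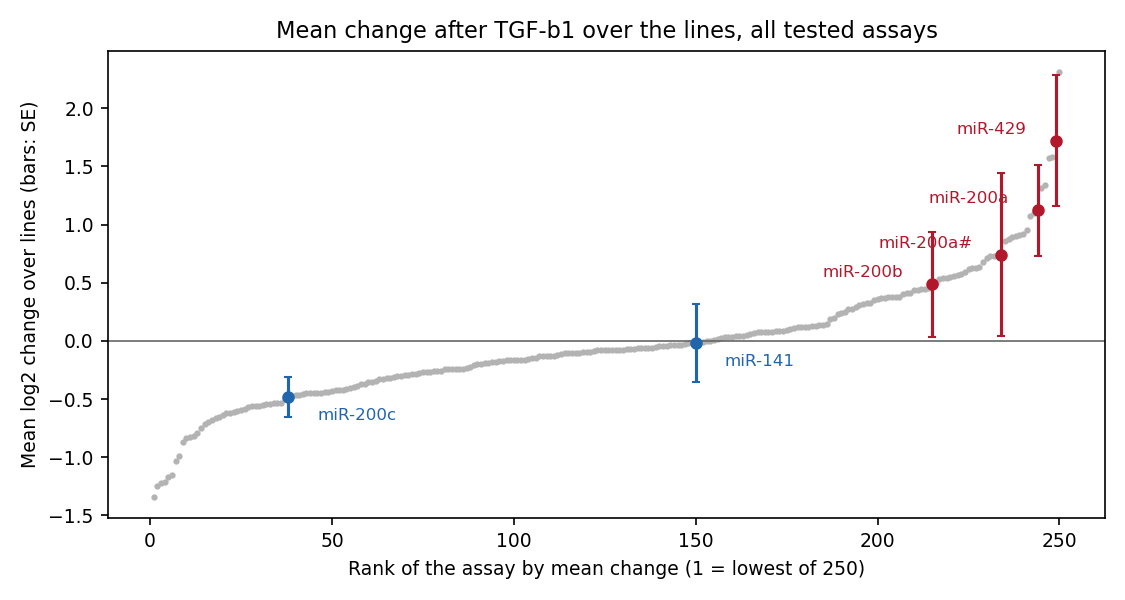
Mean log2 change after TGF-β1 over the lines for the 250 tested assays (grey points, ordered from lowest to highest), with the chromosome 1 members in red and miR-200c and miR-141 in blue, and bars of 1 SE over lines. miR-429 at 1.72 and miR-200a at 1.12 stand near the upper end and miR-200c at -0.48 towards the lower.

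Counted within lines, 2 of 4 members with a value were at least 2-fold higher in A549 (miR-200a and miR-429), where 10.2% of 275 assays were. In LC2/ad 2 of 4 were (miR-200b and miR-429), against 16.8% of 303 assays. In PC3 it was 1 of 2 (miR-429), against 5.12% of 293, and in PC9 1 of 4 (miR-200a#, by 1.88), against 11.1% of 252. By the same count, with bounds at their bound, none was at least 2-fold lower, where 10.3% of assays were in PC9, 5.46% in PC3, 13.2% in LC2/ad and 11.3% in A549. A 2-fold fall is still possible for both upper bounds, miR-200b in PC3 and miR-200a# in LC2/ad, which were -1.34 and -3.52 with a Ct limit of 38, so that 2 members were then lower. In folds, miR-429 was at least 7.61-fold higher in LC2/ad, 5.23-fold in A549 and at least 2.08-fold in PC3, and miR-200a was 3.64-fold higher in A549. These compare single samples, with no test. For the assays named here on card A, Ct values of both A549 samples and of control LC2/ad carry more decimals than those of treated LC2/ad, PC3 and PC9. The LC2/ad pair thus joins values given in unlike formats (miR-429 at 36.6214 and 32.47), and any effect on its changes was not tested. Kept as values at 40, the passenger strand miR-200a# takes folds of 59.4 in A549 and 0.0221 in LC2/ad in the authors' deposited table, but with the limit of 35 these are bounds of at least 0.87 and at most -0.52 on the log2 scale.

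In PC9 the size of the changes, and for miR-200b also the sign, depended on the normalizer. Between the PC9 samples the mean Ct of the card A microRNAs fell by 0.23 cycles while that of U6 was 0.67 higher. With U6, miR-200b, miR-200a and miR-429 had 0.99, 1.43 and 1.41 in PC9, and with the median of the microRNAs they had -0.12, 0.32 and 0.30. In A549 and LC2/ad the values kept their sign over the 5 normalizers. They ran from 2.38 to 2.65 for miR-429 in A549 and from 2.55 to 3.20, as bounds, in LC2/ad, and from 1.86 to 2.12 and 0.59 to 1.24 for miR-200a. Those of miR-200b ran from 0.67 to 0.93 in A549 and from 1.27 to 1.92 in LC2/ad.

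**Figure D4:**
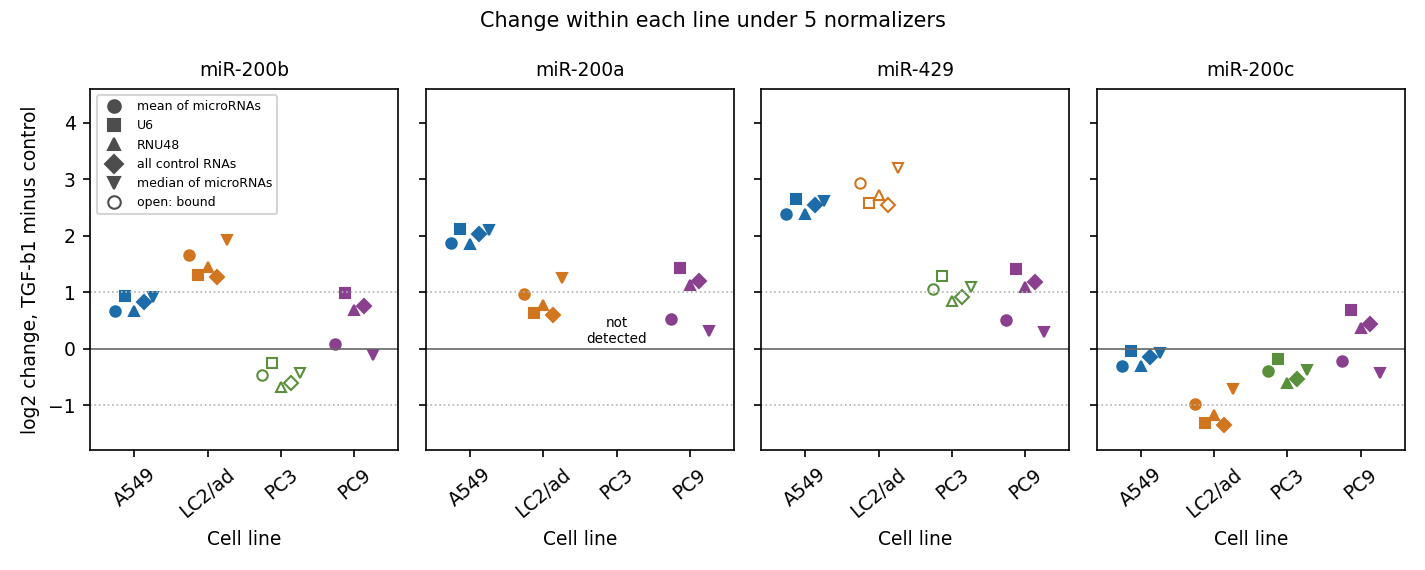
Change in log2 level, TGF-β1 minus control, of miR-200b, miR-200a, miR-429 and miR-200c in each line under 5 normalizers (symbols), with open symbols for bounds and dotted lines at a 2-fold change. The chromosome 1 members lie above 0 in A549 and LC2/ad under all 5 normalizers, miR-200c lies below 0 there, and the PC9 values spread over about 1 log2 unit, on both sides of 0 for miR-200b and miR-200c.

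The normalizer cancels between assays of 1 card, which allows the members to be set against each other. miR-429 gained on miR-200b in all 4 lines, by 0.42 in PC9, 1.71 in A549, and at least 1.28 and at least 1.53 in LC2/ad and PC3. miR-200a gained on miR-200b by 1.19 in A549 and 0.44 in PC9 and lost 0.68 in LC2/ad (a log2 difference of -0.68). miR-429 minus miR-200a was -0.02 in PC9, whereas miR-429 exceeded miR-200a by 0.52 in A549 and at least 1.96 in LC2/ad. Each of these values rests on 4 single wells. With the U6 spread of card A such a value would have an SD of 0.77 cycles, more than the size of the values of 0.42, 0.44, 0.52, -0.68 and -0.02.

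Against miR-200c, which had -0.31, -0.98, -0.40 and -0.22 in A549, LC2/ad, PC3 and PC9, miR-429 gained 2.69, at least 3.91, at least 1.46 and 0.73. The value of miR-200c in PC9 was positive with U6 (0.68), RNU48 (0.37) and all control RNAs (0.44) and -0.43 with the median, whereas differences from miR-200c do not depend on the normalizer. The mean difference in change was 2.20 (SE 0.70, n = 4 lines, exact sign-flip test, two-sided, p = 0.125, adjusted p = 0.375 over 6 comparisons). For miR-200a it was 1.63 (SE 0.44, n = 3, exact sign-flip p = 0.250, adjusted p = 0.375), positive in 3 of 3 lines, and for miR-200b 0.96 (SE 0.60, n = 4, exact sign-flip p = 0.250, adjusted p = 0.375), with PC3 at -0.07 as an upper bound. The smallest p that 4 lines allow is 0.125, and 3 lines allow 0.250, so this test could not pass. Against miR-141, detected in too few lines to give all values, the means were 1.33 for miR-429 and 0.11 for miR-200b (n = 3 each, adjusted p = 0.375 and 1.00, exact sign-flip test) and 1.38 for miR-200a (n = 2, exact sign-flip adjusted p = 0.600). miR-141 was detected only in the control sample of A549 (Ct 34.6, and 40 after TGF-β1), where all 3 chromosome 1 guides had positive values, and had 0.33 in PC3 and 0.31 in PC9.

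Across the 8 samples the assay whose levels were most like the mean of the 3 guides was miR-203, an epithelial microRNA of the skin and airway encoded on another chromosome (Pearson r = 0.99, Spearman rho = 1.00, the highest r of 217 assays detected in at least 6 samples). The next were miR-886-5p (r = 0.98), which later annotation counts as a piece of a vault RNA relative,, miR-138 (0.97), miR-139-5p (0.97) and miR-146a, a target of NF-κB (0.97). The least like were miR-769-5p (-0.98), miR-340 (-0.98) and miR-148a (-0.96). PC9 stands apart and carries much of this, and samples of 1 line are not independent. Over the 6 samples of the 3 other lines r was 0.95 for miR-203 and 0.84, 0.72, 0.71 and 0.80 for the next 4, and miR-203 was then second. Both profiles were at the lower limit in PC3, though miR-203 was detected in the control sample there (Ct 33.5). With a Ct limit of 38 miR-203 had rank 3 by r (0.97), and with 40 kept as a value rank 7 (0.94). miR-203 had a change of 0.16 in PC9, 0.98 in A549, 1.98 in LC2/ad and at most -1.47 in PC3, in each line on the same side as miR-200b.

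**Figure D5:**
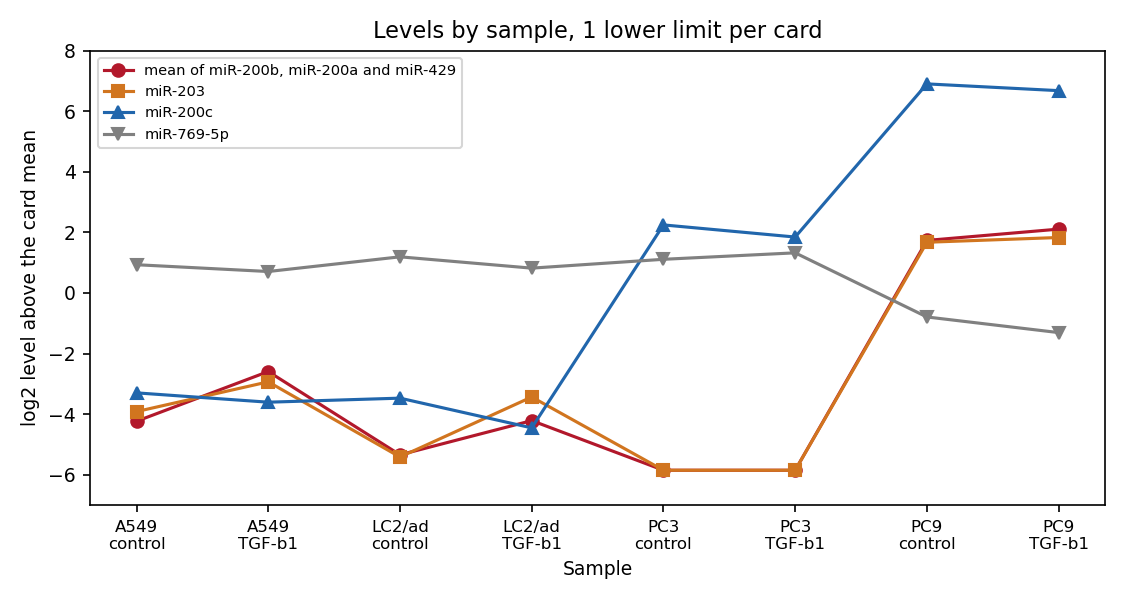
Log2 level above the card mean in each of the 8 samples for the mean of the 3 guides, for miR-203 (most like), miR-200c and miR-769-5p (least like), with 1 lower limit for all samples. The lines between points only guide the eye. The guides and miR-203 reach the limit of -5.85 in PC3, where miR-200c is at 2.25 and 1.85.

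Within the cluster the guides had pairwise r of 0.96 to 0.98 over 8 samples, and of 0.75 to 0.85 over the 6 without PC9. Over 8 samples miR-200c correlated with them at 0.59 to 0.73. Over the 6 without PC9 its r was -0.90 with miR-200b, -0.48 with miR-200a and -0.53 with miR-429, while with miR-141 it was 0.98. These are descriptions over few samples that share lines, with PC3 setting much of the spread.

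Other microRNAs were followed in lists of those described as opposing or promoting the transition. ZEB1, ZEB2, E-cadherin and the transition itself were not measured here. Of the opposing list, which includes miR-200c and miR-141, 15 of 18 assays were found by name and 12 were tested. 0 passed in either direction, 3 had a mean above 0 and 9 below, and their median of -0.10 lay beside -0.08 for all tested assays. Within it miR-203 had the highest mean (0.41, SE 0.73) and miR-30a-5p followed (0.12, SE 0.12), while miR-204 had the lowest (-1.17, SE 0.20, adjusted p = 0.290, limma) and miR-200c the next (-0.48, SE 0.17, adjusted p = 0.416, limma). Of the promoting list 14 of 17 were tested and 0 passed, with 8 means above 0 and 6 below. Their median was 0.34, against -0.08 for all tested assays. By line, the median change of this list was 0.53 in A549 and 0.97 in LC2/ad, but 0.13 in PC3 and 0.16 in PC9. miR-27a had 0.91 (SE 0.29, adjusted p = 0.296, limma) and miR-31 0.89 (SE 0.25, adjusted p = 0.290, limma), both higher in 4 of 4 lines, and miR-10b (-0.41, SE 0.28) and miR-192 (-0.32, SE 0.14) were lowest. In the promoting list miR-31 is also an epithelial marker here, and miR-143 and miR-145 are also fibroblast and smooth muscle markers. miR-192 stands in both lists.

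Markers of another cell type moved in LC2/ad, the line with the largest miR-429 value, and in PC9, the line with the smallest. In LC2/ad the fibroblast and smooth muscle markers detected went from 1 to 3 of 5, with miR-145 at a Ct of 35.9 and 31.3, miR-143 at 33.7 and 31.9 and miR-199a-3p at 40 and 34.5, while miR-214 and miR-199a-5p stayed at 40. Their summed level relative to the card mean went from 0.0130 to 0.161 there. It was 0 in both A549 samples, 8.13 and 8.69 in PC3, and 0 and 0.115 in PC9. Over the lines it ranged from 0 to 8.13 in control and from 0 to 8.69 in treated samples. In PC9 the markers detected went from 0 to 2 of 5, with miR-145 at a Ct of 36.4 and 32.3 and miR-143 at 40 and 34.6. There miR-199a-3p was at 35.1 in the control and 40 in the treated sample. The part of these markers in the LC2/ad and PC9 changes was not tested. In A549, where miR-200a and miR-429 were also at least 2-fold higher, none of the 5 markers was detected in either sample, although miR-143 (36.1) and miR-145 (35.7) amplified past the limit after TGF-β1 and were at 40 before.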

How the data were processed

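MicroRNAs were measured by TaqMan quantitative PCR of 40 cycles in 8 samples, per the labels' protocols. The sources used here do not give instrument or threshold settings. The authors deposited raw Ct values with no normalization, a linear ratio against control A549 (per the file headers), and a fold of treated over control per line. Folds recomputed from Ct and the U6 average of the card differed from the deposited ones by at most 8.45e-08 on the log2 scale. Control wells were assigned to cards by assay number, not by their place in the table.

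Groups came from the treatment label, which goes with the title and with the deposited folds. The source name states the reverse and would turn every sign of change. Ct above 35 was set to 35, and levels were taken relative to the card's mean Ct of the assays detected in all 8 samples (117 on card A, 51 on card B). Changes were tested in assays with a value in at least 3 lines with limma 3.58.1 in R 4.3.3 on within-line differences, two-sided, with Benjamini-Hochberg adjustment over all tested assays and a threshold of 0.05. An SE of a mean change is the SD over lines divided by the root of n. Lines pair the samples: deviations from the group means correlated within a line at 0.81 to 0.94 over 168 assays. The highest correlation with another line was 0.79 for A549 (0.92 within the line) and 0.75 for LC2/ad (0.81 within). It was -0.13 for PC3 and -0.14 for PC9. P-values for a change after TGF-β1 measure the spread between lines. Those for level differences, also relative to miR-200c, take the control and treated samples of a line as its 2 values. They measure the spread left within lines after treatment, not that between lines or between cultures of 1 line under 1 condition. Named assays were the members, the other cluster with miR-205, the 5 most and 3 least similar profiles, and the 2 highest and lowest means of each list. The members and lists were chosen with earlier results of these data known. On simulated data with the shape of the response test (250 assays), limma called 84% of assays changed by 1 log2 unit and 100% of those changed by 2. All simulated assays had 1 common spread, the median SD of the tested assays. The tested members had SEs of 0.39 to 0.70, above the median SE of 0.28, so these shares do not hold for them.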

Additional observations from a re-analysis of the deposited data

Results flagged for a closer look

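PC9 stood apart from the 3 other lines for 3 sets of member levels, by a gap above the 95% critical value of Dixon's test for 4 samples: miR-429 in the control samples (log2 level 1.28 in PC9) and miR-200a# in the control (-1.96) and treated (-0.0782) samples. In these sets 2, 3 and 2 of the 4 lines sat at the common lower limit, which narrows their spread. With no Ct limit, an alternative chosen after seeing the data, the gap took 0.66, 0.37 and 0.42 of the range, under the critical value, so the gaps rest on the limit. Chance flags about 1 in 20 such groups, and the 4 samples are 4 lines, not repeats. In 2 members the change had the opposite sign in 1 line. miR-200b had -0.47 in PC3, an upper bound, and positive values in the other 3 lines, and miR-200a# had -0.52 in LC2/ad, an upper bound, and positive values in A549 and PC9. With 1 pair of samples per line these differences were not tested.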

How the results depend on the processing

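The 4 within-line differences limit precision, and Ct values near 35 turn most PC3 values into bounds. Over the lines 0 assays passed, as in all other settings but U6, where 2 did. Without the replicate block (samples not paired by line) 0 passed, and miR-429 kept its mean of 1.72 (adjusted p = 1.00, limma). The mean of miR-141 (-0.02) became positive with U6 (0.45), RNU48 (0.11), all control RNAs (0.21), the median (0.0031) and no replicate block (0.087). The 191 assays that differed between lines were 127 to 161 with 1 sample left out, with 127 without treated PC3. Leaving out 1 sample turned the sign of 5 uncalled level differences, at their lowest -0.13 for miR-429 and -0.20 for miR-200a# (A549 minus LC2/ad), -0.24 for miR-200a and -0.062 for miR-429 (LC2/ad minus PC3), and -0.20 for miR-200a# (A549 minus PC3). The change of miR-200b relative to miR-141 ran from -0.51, without A549, to 0.57. Of the 14 member changes with a value, 6 were at least 2-fold higher, and 3 with a Ct limit of 32; 0 were 2-fold lower, and 2 with a limit of 38, with no limit and by the authors' deposited fold. Of the 5 most similar assays 3 remained with a limit of 32 or 38 or when detected in all 8 samples, 2 with no limit or by Spearman, and 1 to 4 with 1 line left out (1 without PC9). Relative to miR-200c, PC3 minus PC9 for miR-200a was -0.69 with a limit of 32. The causes were not tested.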
